A study of Mus musculus with 15 samples.

Results

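The endothelial identity genes are 10 genes by which blood vessel lining cells are commonly recognized: *Cdh5*, *Pecam1*, *Esam*, *Kdr*, *Flt1*, *Tek*, *Tie1*, *Eng*, *Emcn* and *Plvap*. They were chosen by name from what is known of endothelium, with earlier results of these data known. All 10 are among the 17454 genes of the deposited table of RPKM, the reads of a gene scaled by its length and by the depth of the library. They are described gene by gene in erythro-myeloid progenitors (EMPs), blood progenitors that arise from endothelium, to show which endothelial transcripts persist in the sorted progenitors and how each compares among the groups.

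The study deleted *Ezh2*, the catalytic subunit of the Polycomb repressive complex PRC2, in the mouse and sequenced the RNA of EMPs sorted from single yolk sacs at E10.5. All 15 libraries come from C57BL/6 embryos that carry *Ezh2* alleles flanked by loxP sites (Ezh2fl/fl). Tie2-Ezh2-KO (5 libraries) carries 1 copy of the Tie2-Cre transgene and Vav-Ezh2-KO (5 libraries) 1 copy of Vav-Cre, while Tie2-Ezh2-WT (3 libraries) and Vav-Ezh2-WT (2 libraries) carry neither transgene and form the joint group WT (5 libraries) unless said otherwise. Embryos of the wild type groups therefore share the floxed alleles with the knockouts and differ from them by the presence of Cre as well as by the deletion.

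Several features limit these groups as models. Tie2-Cre is driven by regulatory sequence of *Tek*, which is itself among the 10 genes, and acts in endothelium before blood progenitors emerge. Vav-Cre, the Vav-iCre line in the methods, is driven by a gene of hematopoietic cells and acts later. The labels give 500 cells per library and the methods 100, and the libraries are not assigned to the independent experiments that the methods mention, so neither could be taken into account. Sorted progenitors are bulk samples: fewer cells of a type and less RNA per cell cannot be told apart in any value below.

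The libraries differ in depth, as counted from the reads that the RPKM values give back. Tie2-Ezh2-WT replicates 4, 10 and 12 hold 10407398, 15811738 and 41025074 reads on genes, and Vav-Ezh2-WT replicates 4 and 6 hold 14890780 and 19957939. Tie2-Ezh2-KO replicates 7, 9, 11, 13 and 17 hold 15934827, 15284308, 14818723, 26825709 and 16091836. Vav-Ezh2-KO replicates 1, 9, 10, 26 and 28 hold 28243857, 18418304, 16855049, 11506895 and 28714656. The deepest library and the shallowest are thus both wild type, and a single read of *Emcn*, the shortest of the 10 transcripts, is worth between 0.0167 and 0.0658 RPKM.

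*Ezh2* itself checks the labels in part. In WT it was at 36.9, 39.5 and 30.1 RPKM in Tie2-Ezh2-WT replicates 4, 10 and 12 and at 42.0 and 41.5 RPKM in Vav-Ezh2-WT replicates 4 and 6. The *Ezh2* level of Tie2-Ezh2-KO replicates 7, 9, 11, 13 and 17 was 27.8, 26.2, 24.8, 29.5 and 26.5 RPKM. That of Vav-Ezh2-KO replicates 1, 9, 10, 26 and 28 was 33.7, 42.4, 37.8, 38.1 and 34.0 RPKM. Each of the 5 Tie2-Ezh2-KO libraries lies below all WT libraries. The Vav-Ezh2-KO libraries lie among the WT libraries, except replicate 9, which lies above them. The values cover the whole gene and do not separate the deleted exons, so they do not check the deletion. By limma, *Ezh2* fell in Tie2-Ezh2-KO against WT (log2 change -0.48, adjusted p = 0.0418, lower in 5 of 5 libraries), and the adjusted p passed 0.05 in 10 of 21 alternative settings, from 0.0134 to 0.344. Without any single one of Tie2-Ezh2-KO replicates 7, 11 and 17, Tie2-Ezh2-WT replicates 4 and 10 and Vav-Ezh2-WT replicates 4 and 6, the *Ezh2* change does not pass, at log2 changes from -0.45 to -0.49, and without both libraries with visceral endoderm transcripts, described below, it does not pass either (-0.50). Against WT, *Ezh2* in Vav-Ezh2-KO gave a log2 change of -0.02 (adjusted p = 0.969 by limma, with 1 of 5 libraries above the highest WT library and 0 below the lowest). Tie2-Ezh2-KO against Vav-Ezh2-KO gave *Ezh2* a log2 change of -0.46 (adjusted p = 0.0269 by limma, lower in 5 of 5 libraries), past the threshold in 12 of 19 settings. Of the 10 fits that leave out 1 library, with changes from -0.49 to -0.41, 6 lose this call.

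Tie2-Ezh2-WT replicate 4 and Tie2-Ezh2-KO replicate 7 stand apart before any endothelial gene is considered. Of 11 markers of visceral endoderm, the yolk sac's outer epithelium, 8 and 9 are above 0.2 RPKM there. Their summed level is 158 RPKM in Tie2-Ezh2-WT replicate 4, where *Afp* leads with 48.2 RPKM, and 231 RPKM in Tie2-Ezh2-KO replicate 7, where *Apoa1* leads with 71.7 RPKM. In the other 13 libraries the sum runs from 1.60 to 12.6 RPKM. What these transcripts add to the endothelial values was not tested; the changes in Tie2-Ezh2-KO against WT are given below with and without these 2 libraries.

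Endothelial cells hold a vessel together through adhesion molecules at their junctions, read growth and stability signals through receptor tyrosine kinases, and present a glycocalyx to the blood. In the yolk sac a subset of them, the hemogenic endothelium, turns into blood progenitors, which round up and leave the vessel wall while their endothelial genes are switched off to different degrees. Some proteins first described in endothelium are also made by blood cells, among them PECAM1, ESAM and endoglin.

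Of the 10 genes, 6 were above 1 RPKM in each of the 15 libraries: *Pecam1*, *Esam*, *Tek*, *Eng*, *Plvap* and *Tie1*. *Kdr* brings to 7 the number above 0.2 RPKM, the lowest level taken as detected, in each library, beside 58.0% of all genes that reach 0.2 and 48.1% that reach 1 RPKM in each library. Taking gene and library together, 139 of 150 values are above 0.2 RPKM and 2 are at 0, those of *Cdh5* and *Emcn* in Vav-Ezh2-KO replicate 9. A value of 0 with that library's depth leaves room for 3 reads, or 0.0409 RPKM of *Cdh5* and 0.111 RPKM of *Emcn*. On either side of the detection level lie *Kdr*, whose lowest library is at 0.622 RPKM, and *Emcn* with 14, *Flt1* with 13 and *Cdh5* with 7 of 15 libraries above 0.2 RPKM.

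In mean level over the 5 WT libraries the order is *Pecam1* (18.2 RPKM), *Esam* (11.7), *Tek* (7.44), *Eng* (7.27), *Plvap* (4.98), *Tie1* (3.96), *Emcn* (1.48), *Kdr* (1.15), *Flt1* (0.583) and *Cdh5* (0.211), an 86.2-fold span. Only *Pecam1* and *Esam* are neighbours in this order whose WT ranges do not overlap. *Esam* over *Tek*, *Eng* over *Plvap* and *Tie1* over *Emcn* hold in 5 of 5 WT libraries although their ranges overlap, and *Kdr* over *Flt1* and *Flt1* over *Cdh5* hold in 4 of 5. *Tek* and *Eng* (3 of 5), *Plvap* and *Tie1* (3 of 5) and *Emcn* and *Kdr* (2 of 5) do not differ beyond their spread. Summed over the 10 genes the level was 56.9 ± 4.59 RPKM in WT (mean ± SD, n = 5), 61.1 ± 7.12 RPKM in Tie2-Ezh2-KO and 55.3 ± 15.1 RPKM in Vav-Ezh2-KO. *Pecam1* is the most abundant of the 10 in each WT and Vav-Ezh2-KO library, while in Tie2-Ezh2-KO *Esam* leads in replicates 7, 9, 11 and 13 and *Eng* in replicate 17.

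**Figure D1:**
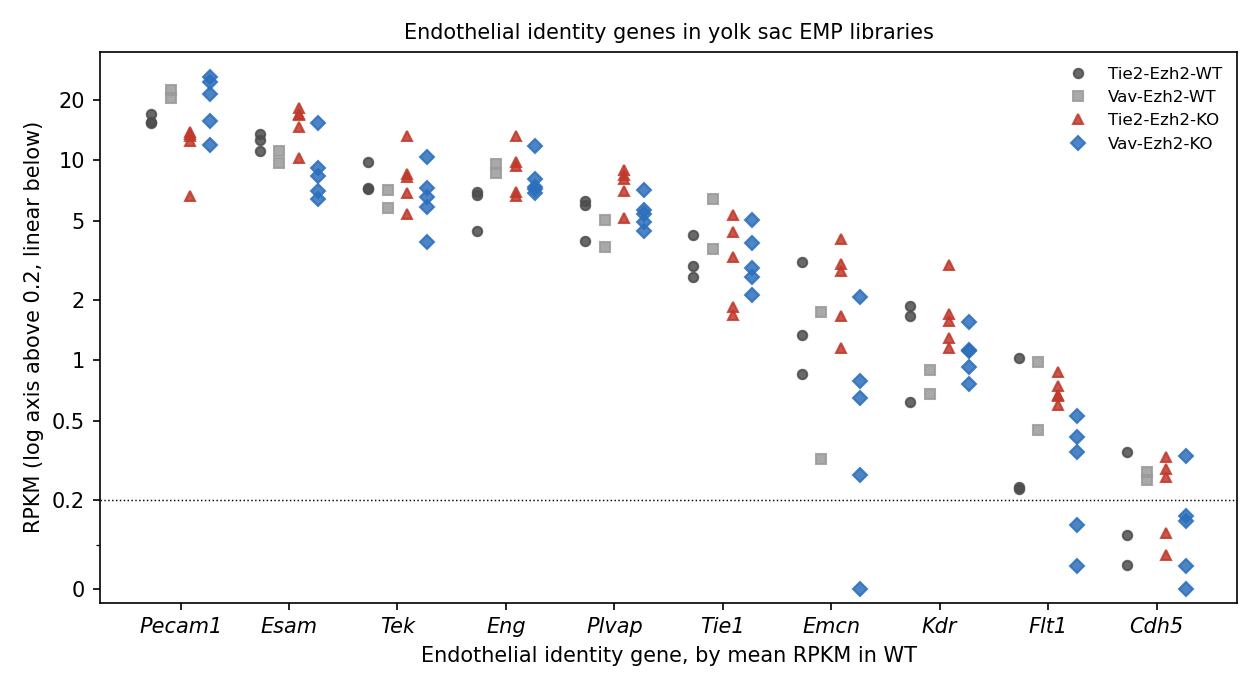
Level of each endothelial identity gene in each library (RPKM), ordered by the mean over the WT libraries. The dotted line marks 0.2 RPKM, below which the axis is linear.

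Differences among groups were tested with limma on log2(RPKM + 0.2) over the genes that exceed 0.2 RPKM in any library being compared, and called at a Benjamini-Hochberg adjusted p under 0.05. On this scale the change of a gene near or below 0.2 RPKM is understated. Exact permutation p-values, given below beside those of limma, are not adjusted for the number of genes. No endothelial identity gene was called in Tie2-Ezh2-KO against WT (0 of 10 by limma), where 386 of 14154 genes were called (2.73%), 343 higher and 43 lower. At an unadjusted p under 0.05 the count was 3 of 10, by limma (11% of all genes) and by limma-voom on the recovered reads. Libraries of the 2 groups did not overlap for 1 of 10, *Pecam1* (4.01% of all genes). The log2 change was positive for 8 of 10, with a median of 0.35 beside 0.01 for all genes, 51.9% of which were positive. Leaving out Tie2-Ezh2-WT replicate 12 lowers that median to 0.177, and leaving out Tie2-Ezh2-KO replicate 13 leaves 6 of 10 positive. Without Tie2-Ezh2-WT replicate 4 and Tie2-Ezh2-KO replicate 7, a setting chosen after seeing the data, 217 genes and 0 of the 10 were called.

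In Vav-Ezh2-KO against WT, 0 of 10 were called by limma, as against 1 of 13646 genes (0.00733%), *Sva*, a gene of neither endothelial list that was chosen after its values were seen. Unadjusted, limma gave 0 of 10 (7.93% of all genes) and limma-voom 2 of 10. For 0 of 10 did the libraries of the 2 groups not overlap (1.41% of all genes). The change was positive for 4 of 10, with a median of -0.21 beside -0.02 for all genes, 47.1% of which were positive. The median is -0.052 without Vav-Ezh2-KO replicate 10 and -0.335 without Vav-Ezh2-KO replicate 26. The count of all genes called is 2 without Tie2-Ezh2-WT replicate 10, Tie2-Ezh2-WT replicate 12 or Vav-Ezh2-WT replicate 4.

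Between the knockouts, Tie2-Ezh2-KO against Vav-Ezh2-KO, limma called 0 of 10 and 495 of 14120 genes (3.51%), 372 higher and 123 lower in Tie2-Ezh2-KO. Unadjusted, 5 of 10 passed by limma (16.6% of all genes) and 6 of 10 by limma-voom. The libraries did not overlap for 1 of 10, *Flt1* (5.23% of all genes). The change was positive for 8 of 10, with a median of 0.38 beside 0.04 for all genes, 55.7% of which were positive. A single library moves this count: without Vav-Ezh2-KO replicate 26, 2 of 10 were called (*Emcn* and *Esam*), and without Tie2-Ezh2-KO replicate 17, 1 of 10 (*Esam*). The count of all genes called is 969 without Tie2-Ezh2-KO replicate 9 and 320 without Vav-Ezh2-KO replicate 28. Under quantile normalization the called genes divide into 334 higher and 191 lower, and 1 of 10 is called, *Pecam1*, lower.

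The wild type groups were compared with each other as well. In Tie2-Ezh2-WT against Vav-Ezh2-WT limma called 0 of 10 and 20 of 13100 genes (0.153%), and 2 of 10 passed unadjusted (8.92% of all genes), as by limma-voom: *Pecam1* and *Eng*. The count of all genes is 99 without Tie2-Ezh2-WT replicate 12, 13 without Tie2-Ezh2-WT replicate 4 and 0 without Tie2-Ezh2-WT replicate 10, Vav-Ezh2-WT replicate 4 or Vav-Ezh2-WT replicate 6. For the difference between the knockout effects, each taken against its own wild type, limma called 0 of 10 and 26 of 14394 genes (0.181%). Unadjusted, it gave 1 of 10, *Flt1* (6.54% of all genes), and limma-voom 2 of 10. Leaving out 1 library gives between 8 (without Vav-Ezh2-WT replicate 6) and 32 genes and 0 of 10. The knockout comparisons share the WT libraries, so their values stand side by side below and were not correlated.

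*Pecam1* (chr11, GRCm38) encodes an immunoglobulin-family adhesion molecule that joins endothelial cells to each other and is carried by platelets and white cells too. In WT, *Pecam1* was at 15.6, 15.4 and 17.1 RPKM in Tie2-Ezh2-WT replicates 4, 10 and 12, and at 20.4 and 22.5 RPKM in Vav-Ezh2-WT replicates 4 and 6. In Tie2-Ezh2-KO replicates 7, 9, 11, 13 and 17, *Pecam1* was at 13.3, 6.67, 13.8, 13.6 and 12.5 RPKM. The *Pecam1* level of Vav-Ezh2-KO replicates 1, 9, 10, 26 and 28 was 24.5, 21.5, 12, 26.1 and 15.7 RPKM. Every Tie2-Ezh2-KO library lies below every WT library, replicate 9 far below, and the Vav-Ezh2-KO libraries spread to both sides of WT. Tie2-Ezh2-KO against WT gave a log2 change of -0.62 (SE 0.20, adjusted p = 0.150 by limma, lower in 5 of 5 libraries), and the exact permutation test over the 252 divisions gave p = 0.00794 (n = 5 and 5), the smallest it can give. Over 21 alternative settings the change ran from -0.72 to -0.43 and the adjusted p of limma from 0.0575 to 0.725. It was -0.43 without Tie2-Ezh2-KO replicate 9, -0.72 without the 2 libraries with visceral endoderm transcripts and -0.46 against Tie2-Ezh2-WT alone.

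Between the wild type groups *Pecam1* was lower in all 3 Tie2-Ezh2-WT libraries than in both Vav-Ezh2-WT libraries (16.0 ± 0.936 and 21.4 ± 1.49 RPKM; log2 change -0.42, unadjusted p = 0.0255, adjusted p = 0.506 by limma). Tie2-Ezh2-KO against Vav-Ezh2-KO gave *Pecam1* a log2 change of -0.72 (SE 0.24, adjusted p = 0.123 by limma, with 1 of 5 libraries below the lowest Vav-Ezh2-KO library; exact permutation p = 0.0397, n = 5 and 5). With all libraries brought to a common median or to the same quantiles this *Pecam1* difference passes (log2 changes -0.77 and -0.75), and its adjusted p in limma ran from 0.0378 to 0.267 over 19 settings. Vav-Ezh2-KO against WT gave 0.09 (adjusted p = 0.923 by limma, with 2 of 5 libraries above the highest WT library and 1 below the lowest, exact permutation p = 0.714).

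*Esam* (chr9) encodes a tight junction adhesion molecule of endothelium that platelets and early blood progenitors make as well. *Esam* was at 11.2, 13.5 and 12.7 RPKM in Tie2-Ezh2-WT replicates 4, 10 and 12 and at 9.71 and 11.2 RPKM in Vav-Ezh2-WT replicates 4 and 6. The Tie2-Ezh2-KO replicates 7, 9, 11, 13 and 17 had *Esam* at 14.6, 18.3, 17.1, 16.9 and 10.3 RPKM. The Vav-Ezh2-KO replicates 1, 9, 10, 26 and 28 had *Esam* at 9.17, 8.35, 7.01, 15.3 and 6.39 RPKM. In Tie2-Ezh2-KO 4 of 5 libraries lie above each WT library and replicate 17 lies among them; in Vav-Ezh2-KO 4 of 5 lie below each WT library and replicate 26 lies above. Tie2-Ezh2-KO against Vav-Ezh2-KO gave *Esam* a log2 change of 0.77 (SE 0.23, adjusted p = 0.0778 by limma, with 3 of 5 libraries above the highest Vav-Ezh2-KO library; exact permutation p = 0.0238, n = 5 and 5). This *Esam* difference passes without Vav-Ezh2-KO replicate 26 (0.97), without Tie2-Ezh2-KO replicate 17 (0.91) and with all 15 libraries in 1 fit (0.77), its adjusted p in limma running from 0.0144 to 0.187 over 19 settings. The change against WT was 0.38 in Tie2-Ezh2-KO (adjusted p = 0.414 by limma, 4 of 5 libraries above WT) and 0.38 without the 2 libraries with visceral endoderm transcripts. It was -0.39 in Vav-Ezh2-KO (adjusted p = 0.659 by limma, 4 of 5 libraries below WT). Against WT the exact permutation p of *Esam* was 0.0635 in Tie2-Ezh2-KO and 0.119 in Vav-Ezh2-KO.

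*Cdh5* (chr8), the gene of VE-cadherin, the adhesive core of the endothelial adherens junction, is the least abundant of the 10. *Cdh5* was at 0.121, 0.349 and 0.0550 RPKM in Tie2-Ezh2-WT replicates 4, 10 and 12 (5, 22 and 9 reads) and at 0.253 and 0.277 RPKM in Vav-Ezh2-WT replicates 4 and 6 (15 and 22 reads). *Cdh5* in Tie2-Ezh2-KO replicates 7, 9, 11, 13 and 17 was at 0.126, 0.328, 0.288, 0.262 and 0.0780 RPKM. *Cdh5* in Vav-Ezh2-KO replicates 1, 9, 10, 26 and 28 was at 0.0533, 0, 0.164, 0.153 and 0.332 RPKM. No library reaches 1 RPKM, the groups overlap throughout, and values this low rest on 0 to 38 reads. The log2 change of *Cdh5* was 0.03 in Tie2-Ezh2-KO against WT (adjusted p = 0.995 by limma, 0 of 5 libraries outside the WT range), turning to -0.29 under quantile normalization and at 0.03 without the 2 libraries with visceral endoderm transcripts. In Vav-Ezh2-KO against WT it was -0.30 (adjusted p = 0.844 by limma, 2 of 5 libraries below the lowest WT library), from -0.48 without Vav-Ezh2-KO replicate 28 to -0.13 without Vav-Ezh2-KO replicate 9.

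The VEGF receptors are low and differ in how they vary. *Flt1* (chr5) encodes a high-affinity receptor that also serves as a decoy for VEGF-A. In Tie2-Ezh2-WT replicates 4, 10 and 12 *Flt1* was at 1.03, 0.232 and 0.229 RPKM, and in Vav-Ezh2-WT replicates 4 and 6 at 0.449 and 0.981 RPKM. For Tie2-Ezh2-KO replicates 7, 9, 11, 13 and 17 the *Flt1* level was 0.670, 0.667, 0.602, 0.742 and 0.871 RPKM. For Vav-Ezh2-KO replicates 1, 9, 10, 26 and 28 the *Flt1* level was 0.530, 0.0519, 0.350, 0.415 and 0.144 RPKM. Each Tie2-Ezh2-KO library is above each Vav-Ezh2-KO library, while the WT libraries spread over both. Tie2-Ezh2-KO against Vav-Ezh2-KO gave *Flt1* a log2 change of 0.97 (SE 0.32, adjusted p = 0.119 by limma, higher in 5 of 5 libraries; exact permutation p = 0.00794, n = 5 and 5, the smallest it can give), with adjusted p from 0.0855 to 0.261 over 18 settings of limma. These levels rest on 6 to 125 reads a library. Against WT (0.583 ± 0.394 RPKM), *Flt1* gave 0.36 in Tie2-Ezh2-KO (adjusted p = 0.867 by limma, 0 of 5 libraries outside the WT range), from 0.18 without Tie2-Ezh2-WT replicate 10 or 12 to 0.56 without Tie2-Ezh2-WT replicate 4, and 0.58 without the 2 libraries with visceral endoderm transcripts. It gave -0.60 in Vav-Ezh2-KO (adjusted p = 0.715 by limma, 2 of 5 libraries below WT), from -0.78 without Tie2-Ezh2-WT replicate 10 or 12 to -0.38 without Vav-Ezh2-KO replicate 9. Against WT the exact permutation p of *Flt1* was 0.325 in Tie2-Ezh2-KO and 0.198 in Vav-Ezh2-KO. The difference between the knockout effects was 1.49 (SE 0.62, unadjusted p = 0.0276, adjusted p = 0.649 by limma over 15 libraries), and 2.01 without the 2 libraries with visceral endoderm transcripts.

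*Kdr* (chr5), the main signalling receptor of VEGF-A and a marker of the precursors of endothelium and blood, was at 1.87, 1.66 and 0.622 RPKM in Tie2-Ezh2-WT replicates 4, 10 and 12 and at 0.678 and 0.901 RPKM in Vav-Ezh2-WT replicates 4 and 6. Its level in Tie2-Ezh2-KO replicates 7, 9, 11, 13 and 17 was 1.29, 1.70, 1.16, 2.99 and 1.57 RPKM. Its level in Vav-Ezh2-KO replicates 1, 9, 10, 26 and 28 was 1.11, 1.55, 1.13, 0.925 and 0.760 RPKM. *Kdr* is above 1 RPKM in all 5 Tie2-Ezh2-KO libraries, in 3 of 5 Vav-Ezh2-KO and in 2 of 5 WT libraries, and the ranges of the 3 groups overlap. The log2 change of *Kdr* was 0.57 in Tie2-Ezh2-KO against WT (adjusted p = 0.669 by limma, 1 of 5 libraries above the highest WT library), from 0.37 to 0.75 without single libraries and 0.83 without the 2 libraries with visceral endoderm transcripts. It was 0.02 in Vav-Ezh2-KO against WT (adjusted p = 0.991 by limma, 0 of 5 libraries outside the WT range). Between the knockouts it was 0.55 (adjusted p = 0.381 by limma, 3 of 5 libraries above the highest Vav-Ezh2-KO library; exact permutation p = 0.0397, n = 5 and 5). Against WT the exact permutation p of *Kdr* was 0.143 in Tie2-Ezh2-KO and 0.952 in Vav-Ezh2-KO.

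*Tek* (chr4) encodes the Tie2 receptor of the angiopoietins, which keeps vessels quiescent, and *Tie1* (chr4), its orphan partner, modulates it. *Tek* ran from 5.81 to 9.77 RPKM in WT, from 5.38 to 13.2 RPKM in Tie2-Ezh2-KO and from 3.91 to 10.4 RPKM in Vav-Ezh2-KO. The 3 groups overlap, with the highest value of each knockout in a single library, Tie2-Ezh2-KO replicate 13 and Vav-Ezh2-KO replicate 26. The *Tek* change was 0.13 in Tie2-Ezh2-KO (adjusted p = 0.937 by limma, 1 of 5 libraries above and 1 below WT) and turned to -0.04 without replicate 13; without the 2 libraries with visceral endoderm transcripts it was 0.27. It was -0.17 in Vav-Ezh2-KO (adjusted p = 0.864 by limma, 1 of 5 libraries above and 1 below WT) and turned to 0.0015 without replicate 10. *Tie1* ran from 2.60 to 6.43 RPKM in WT, from 1.69 to 5.33 RPKM in Tie2-Ezh2-KO and from 2.13 to 5.04 RPKM in Vav-Ezh2-KO. The *Tie1* change was -0.30 in Tie2-Ezh2-KO (adjusted p = 0.892 by limma, 2 of 5 libraries below WT), from -0.50 to -0.11 without single libraries and -0.46 without the 2 libraries with visceral endoderm transcripts. It was -0.24 in Vav-Ezh2-KO (adjusted p = 0.849 by limma, 1 of 5 libraries below WT), from -0.40 without Vav-Ezh2-KO replicate 26 to -0.05 without Vav-Ezh2-WT replicate 6.

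Endoglin, a co-receptor for ligands of the TGF-β and BMP family that is found on endothelium and on early hematopoietic cells, is encoded by *Eng* (chr2). *Eng* ran from 4.43 to 9.62 RPKM in WT, from 6.61 to 13.3 RPKM in Tie2-Ezh2-KO and from 6.86 to 11.8 RPKM in Vav-Ezh2-KO, with the groups overlapping. Its change was 0.33 in Tie2-Ezh2-KO (adjusted p = 0.762 by limma, 2 of 5 libraries above the highest WT library). Without single libraries the *Eng* change ran from 0.17 to 0.44, and over all 21 alternative settings from 0.17 to 0.58. Without the 2 libraries with visceral endoderm transcripts it was 0.29. In Vav-Ezh2-KO it was 0.19 (adjusted p = 0.844 by limma, 1 of 5 libraries above WT), from 0.03 without Tie2-Ezh2-WT replicate 12 to 0.30 without Vav-Ezh2-WT replicate 6, and -0.17 against Vav-Ezh2-WT alone. All 3 Tie2-Ezh2-WT libraries (6.02 ± 1.38 RPKM) were below both Vav-Ezh2-WT libraries (9.14 ± 0.676 RPKM; log2 change -0.61, unadjusted p = 0.0379, adjusted p = 0.535 by limma).

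*Emcn* (chr3) encodes endomucin, a sialomucin of the glycocalyx of capillaries and veins, and *Plvap* (chr8) the protein of the diaphragms that bridge endothelial fenestrae. *Emcn* was at 0.855, 1.34 and 3.12 RPKM in Tie2-Ezh2-WT replicates 4, 10 and 12 and at 0.322 and 1.75 RPKM in Vav-Ezh2-WT replicates 4 and 6. Tie2-Ezh2-KO replicates 7, 9, 11, 13 and 17 showed *Emcn* at 3.05, 4.03, 1.66, 1.15 and 2.81 RPKM. Vav-Ezh2-KO replicates 1, 9, 10, 26 and 28 showed it at 0.267, 0, 0.650, 2.08 and 0.787 RPKM. Vav-Ezh2-KO replicate 26 alone reaches into the Tie2-Ezh2-KO range, and the WT libraries cover much of the span of both knockouts. Tie2-Ezh2-KO against Vav-Ezh2-KO gave *Emcn* a log2 change of 1.84 (SE 0.53, adjusted p = 0.0759 by limma, with 3 of 5 libraries above the highest Vav-Ezh2-KO library; exact permutation p = 0.0238, n = 5 and 5). Without Vav-Ezh2-KO replicate 26 this *Emcn* difference is 2.26 and passes, and the adjusted p of limma ran from 0.0186 to 0.213 over 19 settings. The change against WT was 0.85 in Tie2-Ezh2-KO (adjusted p = 0.577 by limma, 1 of 5 libraries above WT), from 0.49 without Vav-Ezh2-WT replicate 4 to 1.16 without Tie2-Ezh2-WT replicate 12, and 0.65 without the 2 libraries with visceral endoderm transcripts. It was -0.99 in Vav-Ezh2-KO (adjusted p = 0.694 by limma, 2 of 5 libraries below WT), from -1.41 without Vav-Ezh2-KO replicate 26 to -0.53 without Vav-Ezh2-KO replicate 9, where the counts are 0 to 35 reads. Against WT the exact permutation p of *Emcn* was 0.167 in Tie2-Ezh2-KO and 0.230 in Vav-Ezh2-KO.

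*Plvap* was at 6.24, 5.99 and 3.95 RPKM in Tie2-Ezh2-WT replicates 4, 10 and 12 and at 3.70 and 5.02 RPKM in Vav-Ezh2-WT replicates 4 and 6. *Plvap* in Tie2-Ezh2-KO replicates 7, 9, 11, 13 and 17 reached 7.04, 5.13, 8.97, 8.41 and 8.11 RPKM. *Plvap* in Vav-Ezh2-KO replicates 1, 9, 10, 26 and 28 reached 5.64, 4.42, 4.94, 7.11 and 5.37 RPKM. In Tie2-Ezh2-KO 4 of 5 libraries lie above each WT library, with replicate 9 among them, and the Vav-Ezh2-KO libraries overlap WT. Tie2-Ezh2-KO against WT gave *Plvap* a log2 change of 0.58 (SE 0.21, adjusted p = 0.245 by limma, 4 of 5 libraries above WT; exact permutation p = 0.0317, n = 5 and 5), and 0.68 without the 2 libraries with visceral endoderm transcripts. Vav-Ezh2-KO against WT gave 0.15 (adjusted p = 0.865 by limma, 1 of 5 libraries above WT), from 0.05 without Vav-Ezh2-KO replicate 26 to 0.23 without Tie2-Ezh2-WT replicate 4. Between the knockouts the *Plvap* change was 0.43 (adjusted p = 0.282 by limma, 3 of 5 libraries above the highest Vav-Ezh2-KO library, exact permutation p = 0.0556). For Vav-Ezh2-KO against WT the exact permutation p of *Plvap* was 0.421.

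**Figure D2:**
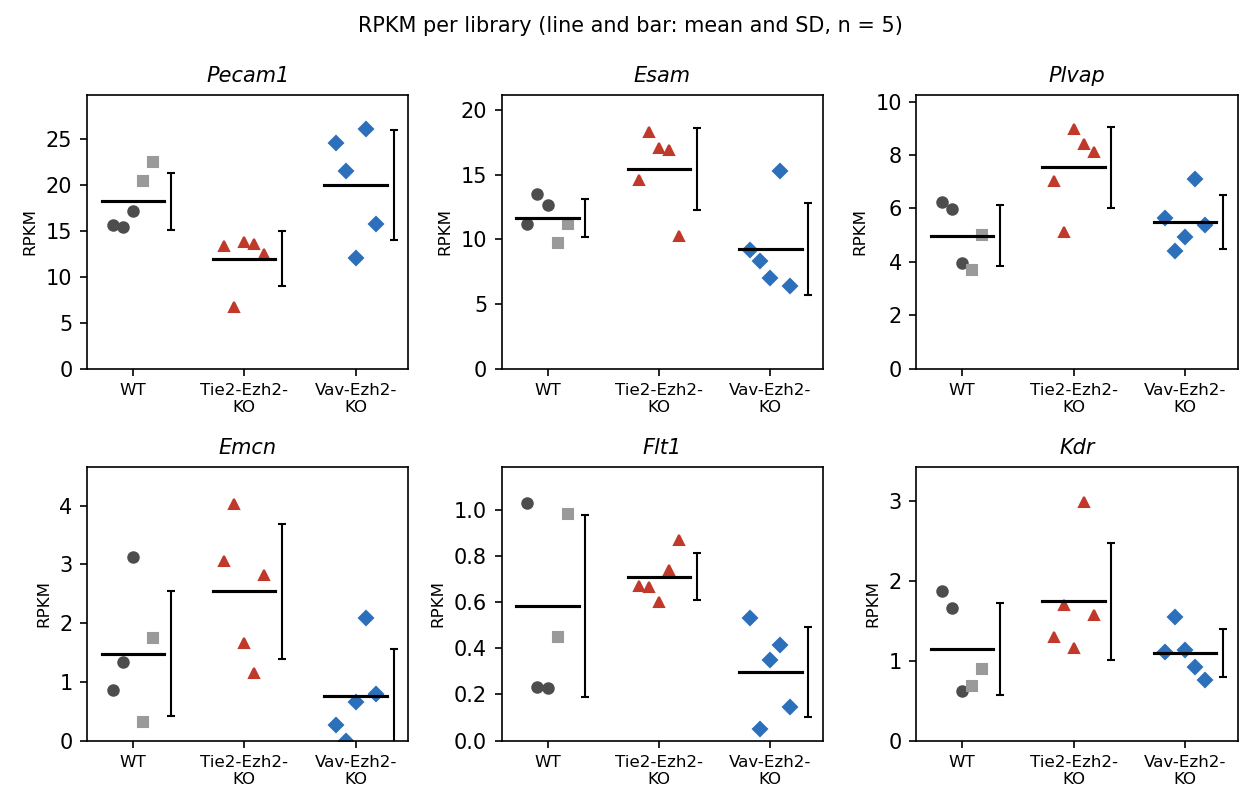
RPKM of *Pecam1*, *Esam*, *Plvap*, *Emcn*, *Flt1* and *Kdr* in each library. Circles, Tie2-Ezh2-WT; squares, Vav-Ezh2-WT; triangles, Tie2-Ezh2-KO; diamonds, Vav-Ezh2-KO.

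**Figure D3:**
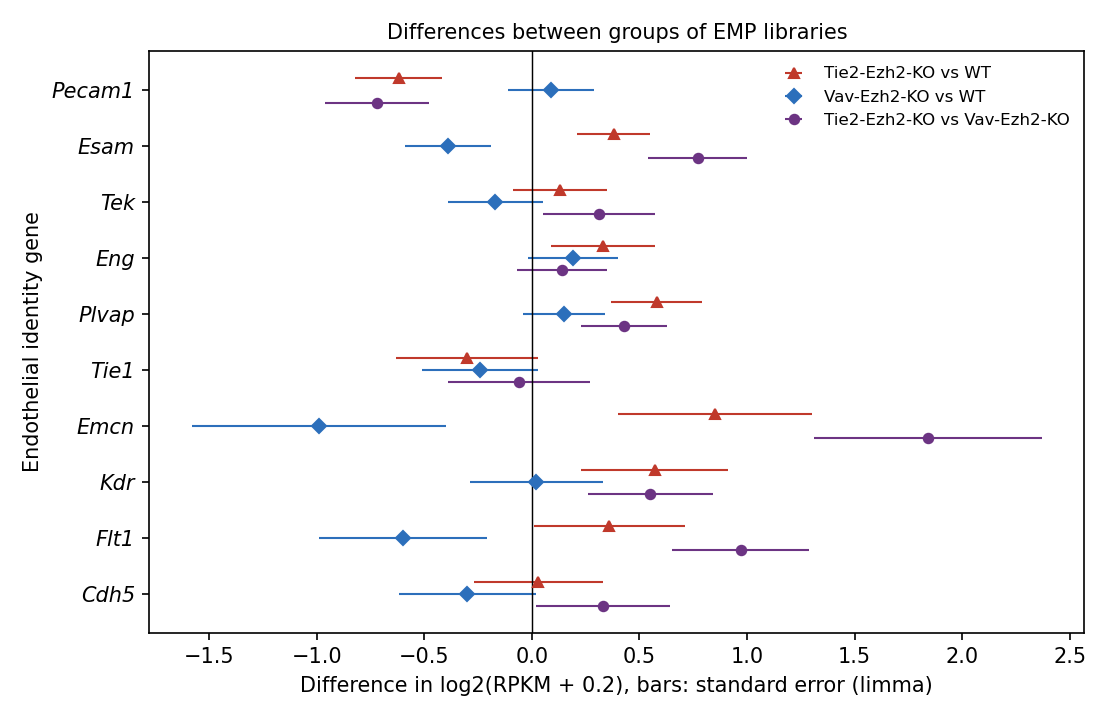
Log2 change of each endothelial identity gene in the knockout comparisons, with its standard error in limma. The comparisons share libraries, and no change has an adjusted p under 0.05.

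A wider list of 75 endothelial genes, 72 of them in the table, sets the 10 in context. By the mean over the 15 libraries 31 of 72 (43.1%) reach 1 RPKM, beside 56.6% of all genes, 8 lie between 0.2 and 1 RPKM and 33 lie under 0.2 RPKM. The genes that reach 1 RPKM are 9 of 12 in signalling and caveolae, 6 of 13 transcription factors, 5 of 11 ligands, 5 of 14 in junctions and adhesion and 6 of 22 receptors. *Cd34* (131 ± 32.2 RPKM), the gene of a sialomucin shared by endothelium and blood progenitors, *Egfl7* (113 ± 11.6 RPKM), the gene of a secreted vessel protein, and *Icam2* (50.7 ± 13.1 RPKM), that of an adhesion molecule, are the most abundant. *Cldn5*, the gene of the tight junction protein of endothelium, is among the 33 under 0.2 RPKM, at 0.122 RPKM; it was chosen after its values were seen. *Cd34*, *Egfl7* and *Icam2* exceed each of the 10 genes in mean level.

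Among the genes of the wider list, 3 of 54 rose in Tie2-Ezh2-KO against WT and 0 fell by limma, beside 2.73% of all genes called; unadjusted, limma gave 10 of 54 (11% of all genes), 9 of them higher, and limma-voom 9. The median log2 change was 0.16 with 33 of 54 positive; under quantile normalization it was -0.008 with 26 of 54 positive, and without Tie2-Ezh2-KO replicate 13 it was 0.071. *Icam2* was lower by -0.53 (adjusted p = 0.0927 by limma, 4 of 5 libraries below WT), and it passes with all 15 libraries in 1 fit, which calls 4 of 54, and without Tie2-Ezh2-KO replicate 9. *Etv2*, the ETS factor that starts the endothelial and blood program, was at 0.642, 1.09 and 0.837 RPKM in Tie2-Ezh2-WT replicates 4, 10 and 12, at 0.705 and 0.430 RPKM in Vav-Ezh2-WT replicates 4 and 6, and, for Tie2-Ezh2-KO replicates 7, 9, 11, 13 and 17, at 1.80, 3.25, 1.29, 3.13 and 2.49 RPKM. *Etv2* rose by 1.43 (adjusted p = 0.0204 by limma, higher in 5 of 5 libraries, from 7 to 88 reads). In Vav-Ezh2-KO replicates 1, 9, 10, 26 and 28 *Etv2* was at 2.94, 0.984, 1.47, 0.415 and 1.63 RPKM, with a change against WT of 0.69 (adjusted p = 0.672 by limma, 3 of 5 libraries above WT); between the knockouts the *Etv2* change was 0.74 (adjusted p = 0.377 by limma, 2 of 5 libraries above the highest Vav-Ezh2-KO library), so the rise is not shown to differ between them. *Ptrf* (now *Cavin1*), the gene of a coat protein of caveolae, rose from 2.13 ± 1.29 to 5.76 ± 2.37 RPKM (log2 change 1.44, adjusted p = 0.0493 by limma, higher in 5 of 5 libraries). *Ece1*, the gene of an enzyme that activates endothelin, rose from 1.91 ± 0.767 to 4.48 ± 1.23 RPKM (log2 change 1.20, adjusted p = 0.0484 by limma, higher in 5 of 5 libraries). These calls depend on single libraries: *Etv2* does not pass without Tie2-Ezh2-KO replicate 13 or 17 or Vav-Ezh2-WT replicate 4 or 6 (log2 changes 1.32, 1.40, 1.43 and 1.30). *Ptrf* passes only without Tie2-Ezh2-WT replicate 4 or 10, and *Ece1* only without Tie2-Ezh2-KO replicate 7 or Tie2-Ezh2-WT replicate 10; in the other 8 fits that leave out 1 library the changes ran from 1.22 to 1.54 for *Ptrf* and from 0.99 to 1.30 for *Ece1*. Without the 2 libraries with visceral endoderm transcripts the 3 genes do not pass (1.48, 1.67 and 1.43), and *Lyve1*, the gene of a hyaluronan receptor of lymphatic endothelium, chosen after its values were seen, does. Over 21 settings the adjusted p in limma ran from 0.0123 to 0.164 for *Etv2*, from 0.0194 to 0.319 for *Ptrf* and from 0.0224 to 0.234 for *Ece1*.

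Between the knockouts 2 of 51 genes of the wider list were higher and 1 was lower in Tie2-Ezh2-KO by limma, beside 3.51% of all genes called. The median change of the 51 genes was 0.36. Unadjusted, limma gave 15 of 51 (16.6% of all genes), 14 of them higher, and limma-voom 15. Markers of visceral endoderm (*Amn*) and of primitive erythroid cells (*Hba-x* and *Hbb-bh1*) were higher in the same comparison, with values given below. *Ece1* (log2 change 1.64, adjusted p = 0.00224 by limma, higher in 5 of 5 libraries) and *Ptrf* (1.67, adjusted p = 0.00442 by limma, higher in 5 of 5 libraries) passed in each of 19 settings. For Tie2-Ezh2-KO replicates 7, 9, 11, 13 and 17 the *Icam2* level was 38.9, 46.5, 29.4, 27.1 and 40.2 RPKM, and for Vav-Ezh2-KO replicates 1, 9, 10, 26 and 28 it was 62.3, 71.3, 58.7, 61.4 and 64.8 RPKM. The groups do not overlap, and the log2 change of *Icam2* was -0.83 (adjusted p = 0.00405 by limma, lower in 5 of 5 libraries), past the threshold in each of 19 settings. Against WT, *Icam2* in Vav-Ezh2-KO gave 0.30 (adjusted p = 0.542 by limma, 5 of 5 libraries above WT). Without Vav-Ezh2-KO replicate 26 the list has 6 genes called. In Vav-Ezh2-KO against WT, limma and limma-voom called 0 of 50, with a median of -0.12 (-0.061 without Vav-Ezh2-WT replicate 6 and -0.198 without Vav-Ezh2-KO replicate 26); unadjusted, limma gave 8 of 50 (7.93% of all genes), 7 of them lower, and limma-voom 9. The change was positive for 16 of 50, beside 47.1% of all genes. *Cd34* gave -0.54 (adjusted p = 0.542 by limma, 4 of 5 libraries below WT) and *Egfl7* -0.22 (adjusted p = 0.544 by limma, 4 of 5 libraries below WT). The wild type groups gave 0 of 46 by limma and by limma-voom, and unadjusted 1 (8.92% of all genes) and 2. The difference between the knockout effects gave 0 of 54 by limma and by limma-voom, and unadjusted 7 (6.54% of all genes) and 12.

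Correlation was read for the genes with enough signal, without *Flt1* and *Cdh5*. Over the 28 pairs of the 8 genes with a mean of at least 1 RPKM, the Pearson correlation across 15 libraries has a median of 0.20 and is positive in 22; the levels of a library come from 1 depth and 1 group, which all pairs share. The mean standardized level of these 8 genes is highest in Tie2-Ezh2-KO replicate 13 (1.02) and Vav-Ezh2-KO replicate 26 (0.85) and lowest in Vav-Ezh2-KO replicate 10 (-0.90). Among 9878 other genes with a mean of at least 1 RPKM, those whose levels are most like this profile over the 15 libraries are *Rcn1* (r = 0.88), *Spats2* (r = 0.85), *Vipr2* (r = 0.85), *Hsdl1* (r = 0.84) and *Fam20b* (r = 0.84). Their means in WT and in Tie2-Ezh2-KO were 16.2 and 17.8 RPKM (*Rcn1*), 6.35 and 8.01 RPKM (*Spats2*), 1.24 and 2.90 RPKM (*Vipr2*), 32.5 and 39.0 RPKM (*Hsdl1*) and 6.68 and 8.55 RPKM (*Fam20b*), and limma called none of the 5 in any comparison.

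The cells were sorted as negative for lineage markers and SCA1 and positive for KIT, CD16/32 and CD41; the antibodies listed include F4/80, carried by macrophages, and TER119, carried by erythroid cells. Markers of EMPs and of other yolk sac cells were read beside the endothelial genes; their part in any endothelial value was not tested. Of 14 EMP markers, 13 or 14 are above 0.2 RPKM in each library, with a summed level from 772 to 1071 RPKM and *Gfi1b*, *Sfpi1* (now *Spi1*) or *Gata1* the most abundant. The marker among the 14 listed that is low is *Gfi1*, a repressor of endothelial genes in emerging blood cells, at 0.593 ± 0.341 RPKM in WT, 0.568 ± 0.401 RPKM in Tie2-Ezh2-KO and 0.0273 ± 0.0262 RPKM in Vav-Ezh2-KO, where it is at 0 in 2 of 5 libraries and has at most 4 reads. Between the knockouts limma called 2 of 14 EMP markers, beside 3.51% of all genes. The change was negative for 8 of 14, with a median of -0.07. Unadjusted, limma gave 6 of 14 (16.6% of all genes), 3 higher and 3 lower in Tie2-Ezh2-KO. *Gfi1* was higher in Tie2-Ezh2-KO than in Vav-Ezh2-KO (log2 change 1.63, adjusted p = 0.00906 by limma, higher in 5 of 5 libraries). So was *Gfi1b* (0.57, adjusted p = 0.0300 by limma, higher in 5 of 5 libraries). *Gfi1* passed in each of 19 settings, with log2 changes from 0.58 to 4.04 (Vav-Ezh2-KO has 0 to 4 reads) and adjusted p from 0.00527 to 0.0326 by limma, and *Gfi1b* in 10 of 19, with adjusted p from 0.00815 to 0.255 in limma. The *Gfi1b* call is lost without Tie2-Ezh2-KO replicate 7 or 11 (log2 changes 0.52 and 0.54) or Vav-Ezh2-KO replicate 1, 9, 10 or 28 (0.60, 0.57, 0.57 and 0.52). Against WT limma called 0 of 14 EMP markers in either knockout, with 4 unadjusted in Tie2-Ezh2-KO (*Gfi1b* higher; *Fcgr3*, *Fcgr2b* and *Ptprc* lower, beside 11% of all genes) and 2 in Vav-Ezh2-KO (*Gata2* higher and *Gfi1* lower, beside 7.93% of all genes); *Fcgr3*, *Fcgr2b*, *Ptprc* and *Gata2* were chosen after their values were seen.

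Megakaryocytes and platelets carry PECAM1 and ESAM, and 10 to 12 of their 12 markers are above 0.2 RPKM in each library. Their summed level was 254, 376 and 192 RPKM in Tie2-Ezh2-WT replicates 4, 10 and 12 and 436 and 213 RPKM in Vav-Ezh2-WT replicates 4 and 6. For Tie2-Ezh2-KO replicates 7, 9, 11, 13 and 17 the megakaryocyte sum was 223, 366, 241, 227 and 225 RPKM. For Vav-Ezh2-KO replicates 1, 9, 10, 26 and 28 it was 315, 371, 221, 305 and 216 RPKM. Tie2-Ezh2-KO replicate 9, the library with the least *Pecam1*, has the highest megakaryocyte sum of its group. In Tie2-Ezh2-KO against WT limma called 1 of 12 megakaryocyte markers, beside 2.73% of all genes. The change was positive for 3 of 12. Unadjusted, limma gave 4 of 12 (11% of all genes), 1 higher and 3 lower. *Gp1ba* fell (log2 change -0.94, adjusted p = 0.0495 by limma, 4 of 5 libraries below WT), but in 7 of 21 settings only, with adjusted p from 0.0174 to 0.250. Of the fits that leave out 1 library, 8 of 10 lose this *Gp1ba* call, at log2 changes from -1 to -0.83; it is kept without Tie2-Ezh2-KO replicate 13 or Tie2-Ezh2-WT replicate 12, and lost without the 2 libraries with visceral endoderm transcripts (-0.76). In Tie2-Ezh2-KO against Vav-Ezh2-KO limma called 1 of 12 megakaryocyte markers, *Treml1*, beside 3.51% of all genes. *Treml1* was lower in Tie2-Ezh2-KO (log2 change -1.04, adjusted p = 0.00984 by limma, lower in 5 of 5 libraries), and passed in 18 of 19 settings. The change was positive for 4 of 12 markers, with a median of -0.24. Unadjusted, limma gave 4 of 12 (16.6% of all genes), 2 higher and 2 lower.

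Macrophage markers, 4 to 8 of 10 above 0.2 RPKM, sum to 112, 94.2 and 73.9 RPKM in Tie2-Ezh2-WT replicates 4, 10 and 12 and to 101 and 95.7 RPKM in Vav-Ezh2-WT replicates 4 and 6. For Tie2-Ezh2-KO replicates 7, 9, 11, 13 and 17 the macrophage sum is 81.1, 87.1, 80.6, 82.9 and 88.0 RPKM, and for Vav-Ezh2-KO replicates 1, 9, 10, 26 and 28 it is 129, 171, 108, 99.3 and 84.6 RPKM. *Lyz2* is the most abundant in each library, and 2 to 5 of the 10 are at 0. Of 8 macrophage markers tested between the knockouts limma called 1, beside 3.51% of all genes, and the change was negative for 7. *Cd68* was lower in Tie2-Ezh2-KO than in Vav-Ezh2-KO (log2 change -0.71, adjusted p = 0.0333 by limma, lower in 5 of 5 libraries), in 10 of 19 settings, with adjusted p from 0.00799 to 0.0940. The *Cd68* call is lost without Tie2-Ezh2-KO replicate 7, 11 or 17 (log2 changes -0.73, -0.71 and -0.73) or Vav-Ezh2-KO replicate 1, 26 or 28 (-0.72, -0.64 and -0.64). Mesenchymal markers sum to between 1.61 and 4.05 RPKM, led by *Pdgfrb*, *Postn* or *Twist1*, with 2 to 6 of 10 above 0.2 RPKM and 1 to 6 at 0; limma called 0 of 6 tested in each comparison, and unadjusted 1 of 6 in Tie2-Ezh2-KO against WT (11% of all genes), between the knockouts (16.6%) and for the difference between the knockout effects (6.54%).

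Visceral endoderm markers outside the 2 libraries named above sum to 3.65 and 1.60 RPKM in Tie2-Ezh2-WT replicates 10 and 12 and to 4.08 and 6.46 RPKM in Vav-Ezh2-WT replicates 4 and 6. Their sum for Tie2-Ezh2-KO replicates 9, 11, 13 and 17 is 11.2, 5.01, 5.64 and 12.6 RPKM, and for Vav-Ezh2-KO replicates 1, 9, 10, 26 and 28 it is 2.59, 5.59, 3.75, 3.12 and 1.92 RPKM. *Amn* alone among them rose in Tie2-Ezh2-KO against WT (0.183 ± 0.348 and 2.43 ± 1.28 RPKM; log2 change 3.01, adjusted p = 0.00155 by limma, higher in 5 of 5 libraries), and it passed in each of 21 settings, at 3.19 without the 2 libraries named above. *Amn* is at 0 in 3 of 5 WT libraries and in 4 of 5 Vav-Ezh2-KO libraries. Between the knockouts, with Tie2-Ezh2-KO replicate 7 included, the change was positive for 9 of 9 visceral endoderm markers tested, beside 55.7% of all genes. The median change of these markers was 1.68, beside 0.04 for all genes. Beside 3.51% of all genes, limma called 1 of them, *Amn* (log2 change 3.42, adjusted p = 0.000149 by limma, higher in 5 of 5 libraries), in each of 19 settings.

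Primitive erythroid markers move with the Tie2-Cre knockout too. Their sum was 151, 133 and 148 RPKM in Tie2-Ezh2-WT replicates 4, 10 and 12, and 72.5 and 122 RPKM in Vav-Ezh2-WT replicates 4 and 6. For Tie2-Ezh2-KO replicates 7, 9, 11, 13 and 17 the primitive erythroid sum was 319, 590.2, 865, 200.2 and 292 RPKM. That of Vav-Ezh2-KO replicates 1, 9, 10, 26 and 28 was 88.6, 130.4, 66.0, 160.0 and 158 RPKM. Each Tie2-Ezh2-KO library is above each other library, and *Hbb-bh1* is the most abundant in 14 of 15 libraries, *Hba-x* in Tie2-Ezh2-KO replicate 9. *Hbb-bh1* rose in Tie2-Ezh2-KO against WT (114 ± 32.1 and 274 ± 142 RPKM; log2 change 1.18, adjusted p = 0.0441 by limma, higher in 5 of 5 libraries), but in 7 of 21 settings only, with adjusted p from 0.0248 to 0.246. Of the fits that leave out 1 library, 8 of 10 lose this *Hbb-bh1* call, at log2 changes from 0.93 to 1.27; it is kept without Tie2-Ezh2-KO replicate 13 or 17, and lost without the 2 libraries with visceral endoderm transcripts (1.24). *Hba-x* rose in Tie2-Ezh2-KO against WT, from 1.36 ± 0.858 to 166 ± 146 RPKM (log2 change 6.33, adjusted p = 8.88e-05 by limma, higher in 5 of 5 libraries). It passed in 20 of 21 settings, limma-voom being the other, and was at 6.78 without the 2 libraries with visceral endoderm transcripts. Between the knockouts the change was positive for 7 of 7 primitive erythroid markers, beside 55.7% of all genes. Their median change was 0.42, beside 0.04 for all genes, and limma called 2, beside 3.51% of all genes. *Hba-x* (log2 change 5.64, adjusted p = 0.000422 by limma, higher in 5 of 5 libraries) passed in each of 19 settings. *Hbb-bh1* (1.29, adjusted p = 0.0302 by limma, higher in 5 of 5 libraries) passed in 11 of 19.

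Promoters from RefSeq (GRCm38.p6) were matched for 6 of the 10 genes, *Emcn*, *Eng*, *Flt1*, *Kdr*, *Tek* and *Tie1*, with no match for *Cdh5*, *Pecam1*, *Esam* and *Plvap*. The 250 bases before the transcript start that RefSeq promoters are set on were read. For *Kdr* and *Flt1* they lie wholly, and for *Tek* and *Emcn* partly, inside the gene as the RefSeq gene table spans it, so only for *Eng* and *Tie1* are they upstream of the whole gene. The sequence is shown for *Tie1*, the receptor with the most ETS letters, at chr4:118489850-118490099 on the minus strand. Capitals mark, on either strand, the letters GGAAG or the longer form CCGGAA of the ETS factors, AGATAA or the form TGATAA of the GATA factors, TGTTTAC of the FOX, ATTGTT of the SOX and TGTGGT of the RUNX factors.
Tie1: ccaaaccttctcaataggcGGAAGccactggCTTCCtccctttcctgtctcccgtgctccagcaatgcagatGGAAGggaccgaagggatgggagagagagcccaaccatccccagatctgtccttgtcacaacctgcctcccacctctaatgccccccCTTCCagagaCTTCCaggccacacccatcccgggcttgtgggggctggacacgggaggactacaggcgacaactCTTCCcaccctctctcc

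GGAAG occurs in 5 of the 6 promoters (6 times in *Tie1*, 3 in *Flt1*, 2 each in *Emcn* and *Eng*, 1 in *Kdr* and 0 in *Tek*), beside 64.1% of all 32851 promoters. CCGGAA occurs in *Kdr* only (12% of all), and ATTGTT in *Emcn* and *Tek* (9.42%). Among the 6 none has AGATAA (9.99% of all), nor the form TGATAA (7.94% of all), nor the FOX letters TGTTTAC (3.17% of all), nor the RUNX letters TGTGGT (14.0% of all). The count of CG dinucleotides is 23 in *Flt1*, 16 in *Kdr*, 6 in *Tie1*, 4 in *Eng*, 2 in *Tek* and 1 in *Emcn*, with a median of 6.00 over all promoters. These matches describe the letters in the window and say nothing of binding.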

How the data were processed

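The authors deposited 1 table of RPKM for 15 libraries, made with TopHat2 2.0.13 and featureCounts. For the 16877 genes above 0 in a library its values give back read counts that are whole to within 0.0001 reads in every library, which gave the depths and the input of limma-voom. The tests used limma 3.58.1 (R 4.3.3), lmFit and eBayes with a trend, on log2(RPKM + 0.2) taking genes that exceed 0.2 RPKM in any library being compared. P-values were adjusted by Benjamini-Hochberg over all genes tested and called under 0.05. Exact permutation tests divided the 10 libraries of a comparison in each possible way, and their p-values were not adjusted. The exact permutation p of *Cdh5*, *Tek*, *Tie1* and *Eng*, not given above, ran from 0.214 to 0.865 over the knockout comparisons. Named were the 10 members, *Ezh2*, the 5 genes most similar to them, and from each marker list the genes past the threshold and the 3 with the highest mean; any other gene is said to be chosen after its values were seen. The members and lists were chosen with earlier results of these data known. No set test was run. The most abundant megakaryocyte marker is not reported here.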

Additional observations from a re-analysis of the deposited data

Results flagged for a closer look

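In a group of 5 libraries a value is given here when its gap to the nearest library on the log2 scale is a large share of the range of its group (Dixon's ratio). Of 141 groups, 13 (9.22%) did so. Some genes were named for their high means, which a single high library can raise, and the sums contain named genes. This share is therefore not set against chance. Among the endothelial identity genes there was 1: *Pecam1* in Tie2-Ezh2-KO replicate 9, at 6.67 RPKM with the nearest library at 12.5. In the same library *Csf1r* was at 0.523 RPKM (nearest 5.17) and the summed megakaryocyte markers at 366 RPKM (nearest 241). *Cd34* was at 213 RPKM in Vav-Ezh2-WT replicate 6 (nearest 144), and *Csf1r* at 0.447 RPKM in Tie2-Ezh2-WT replicate 12 (nearest 4.26). Tie2-Ezh2-WT replicate 4 had *Afp* at 48.2 RPKM (nearest 1.78), *Apoa1* at 47.6 RPKM (nearest 2.09) and *Rbp4* at 32.4 RPKM (nearest 1.27). Tie2-Ezh2-KO replicate 7 had *Afp* at 59.9 RPKM (nearest 2.44) and summed visceral endoderm markers at 231 RPKM (nearest 12.6). *Amn* was at 0.176 RPKM in Vav-Ezh2-KO replicate 10, from 5 reads, with the others at 0. Vav-Ezh2-WT replicate 4 had *Hbb-bh1* at 60.1 RPKM (nearest 112) and summed primitive erythroid markers at 72.5 RPKM (nearest 122).

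The knockout effects, each against its own wild type, differed for *Hba-x* by a log2 change of 6.41 (SE 1.24, adjusted p = 0.0457 by limma over 15 libraries), past the threshold in 5 of 24 settings, with adjusted p from 0.0252 to 0.730. Of the fits that leave out 1 library it passes only without Tie2-Ezh2-KO replicate 7 or 13 or Vav-Ezh2-KO replicate 9 or 26 (6.78, 6.84, 6.90 and 6.64).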

How the results depend on the processing

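Of 98 alternative counts of endothelial identity genes called, 93 were unchanged. The 5 others concern Tie2-Ezh2-KO against Vav-Ezh2-KO: 1 called under quantile normalization, 1 with a common median and 1 with all 15 libraries in 1 fit, and 0 to 2 without single libraries. Of 648 alternative values of single members, 619 kept their direction and side of the threshold, 6 passed it and 23 changed direction; none of these 23 had passed. Direction changed for *Tie1* between the knockouts with limma-voom (0.02), *Cdh5* in Tie2-Ezh2-KO against WT under quantile normalization (-0.29), *Kdr* in Vav-Ezh2-KO against WT with a pseudocount of 1 (-0.0037), and, in Vav-Ezh2-KO against its own wild type only, *Eng* (-0.17), *Pecam1* (-0.16) and *Tek* (0.01). Without single libraries the changes crossed 0 for *Eng* (-0.0035 to 0.27) and *Tie1* (-0.26 to 0.13) between the knockouts, *Cdh5* (-0.13 to 0.17) and *Tek* (-0.04 to 0.28) in Tie2-Ezh2-KO against WT, and *Kdr* (-0.13 to 0.20), *Pecam1* (-0.02 to 0.26) and *Tek* (-0.34 to 0.0015) in Vav-Ezh2-KO against WT.

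Counts of all genes called moved more. Tie2-Ezh2-KO against WT gave 187 against its own wild type and 217 without the 2 libraries with visceral endoderm transcripts; of the wider list it gave 0 with no filter, 1 without the trend, 0 against its own wild type, 1 without those 2 libraries, 4 with all 15 libraries in 1 fit (*Icam2* lower among them) and 0 to 3 without single libraries. Vav-Ezh2-KO against WT gave 2 with a common median, 2 against its own wild type, 0 with limma-voom and 1 to 2 without single libraries. Between the knockouts there were 304 with no filter and 320 to 969 without single libraries, and of the wider list 5 with all 15 libraries in 1 fit and 3 to 6 without single libraries. The wild type groups gave 6 with no filter, 0 without the trend, 2 with all 15 libraries, 31 with limma-voom and 0 to 99 without single libraries. The difference between the knockout effects gave 15 with no filter, 12 with a filter of 1 RPKM, 12 under quantile normalization (9 higher and 3 lower, against 23 and 3), 10 with a common median, 2 with limma-voom, 9 without the 2 libraries and 8 to 32 without single libraries; a common median moved its median over all genes from 0.06 to -0.07. The cause was not tested. Members detected in each library were 7 to 8 without single libraries.

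Limma-voom and the setting without the 2 libraries were chosen after seeing the data. Where 1 Vav-Ezh2-WT library was left, it was assumed to vary like the other groups. With a filter of 1 RPKM *Cdh5* and, between the knockouts, *Flt1* could not be tested. No replicate numbers pair the groups. Depth limits *Cdh5*, *Emcn* and *Flt1* most, with 0 to 38, 0 to 187 and 6 to 125 reads a library.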
